A study of Mus musculus with 13 samples.

Results

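The cytosolic ribosome is built from ribosomal RNA and a fixed set of proteins, named Rps for the small 40S subunit and Rpl for the large 60S subunit. The members described here are the 89 of 14911 measured genes whose symbols follow that naming, including Rpsa and the stalk proteins Rplp0, Rplp1 and Rplp2. The choice used symbols only and no measured value, and it left out 8 rows named as pseudogenes and 10 rows for the Rps6k kinases, which modify ribosomal protein S6 but are not part of the ribosome. Of the 89 members, 76 are canonical ribosomal proteins, 31 of the small and 45 of the large subunit. The other 13 are 12 copies of canonical genes and Rps19bp1, which encodes a binding partner of S19 and not a ribosomal protein.

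Messenger RNA was sequenced from whole injured hamstring muscle of female C57BL/6 mice on day 4 after intramuscular cardiotoxin (0.32 mg/kg), a component of cobra venom that lyses muscle fibres. All mice had this injury, and no uninjured muscle was included. The 9 dexamethasone mice received this synthetic glucocorticoid at 10 mg/kg by daily intraperitoneal injection, and the 4 saline mice received the vehicle on the same schedule. Each library came from 1 mouse, and ages are not stated in the labels. Every dexamethasone mouse had formed heterotopic bone in the injured muscle, whereas the submitters left out the 1 saline mouse with such bone, so drug and bone cannot be told apart here.

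Cells make ribosomal proteins in matched amounts, and most of their messenger RNAs begin with a run of pyrimidines, the terminal oligopyrimidine tract, through which the mTOR kinase and the RNA-binding protein LARP1 control their translation and stability. Growing muscle adds ribosomes, and glucocorticoids are known to reduce protein synthesis in skeletal muscle. Several ribosomal proteins have close copies in the genome, some of which replace the canonical protein in particular tissues, such as Rpl3l in striated muscle.

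The windows around the annotated transcription starts are shown for 8 members whose levels are described further on, to set members without such a pyrimidine run beside members with one. They are RefSeq sequences on GRCm38.p6, given 5′ to 3′ on the strand of the gene, with 15 bases before the start and 15 from it. Capitals mark runs of at least 5 bases that open with C and go on with C or T only, where the run lies at the start. Rpl37a lies at chr1:72711245-72711274 on the plus strand, Rps28 at chr17:33824548-33824577 on the minus strand and Rps27 at chr3:90213634-90213663 on the minus strand. Rpl38 lies at chr11:114668565-114668594 on the plus strand, Rpl13a at chr7:45128731-45128760 on the minus strand and Rps6 at chr4:86857353-86857382 on the minus strand. Rpl15 lies at chr14:18270972-18271001 on the minus strand and Rpl22l1 at chr3:28805493-28805522 on the plus strand.
Rpl37a: ttccgctcgccggtctaaaaccgcgcatgc
Rps28: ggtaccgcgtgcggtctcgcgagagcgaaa
Rps27: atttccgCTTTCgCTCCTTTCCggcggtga
Rpl38: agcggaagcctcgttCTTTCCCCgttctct
Rpl13a: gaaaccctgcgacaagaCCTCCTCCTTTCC
Rps6: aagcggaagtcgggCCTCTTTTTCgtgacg
Rpl15: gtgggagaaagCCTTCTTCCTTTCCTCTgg
Rpl22l1: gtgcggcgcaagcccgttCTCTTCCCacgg
Annotated starts can differ from the starts used in muscle, so the absence of a run says only that these letters are not in this window. These 8 do not stand for all members. Over 56 canonical members with a matched window, the median log2 fold change (dexamethasone minus saline) was -0.18 both with and without such a run.

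Libraries held 25531487 to 34942266 whole reads, 28021111 to 34942266 in dexamethasone and 25531487 to 32537345 in saline. The labels give no sequencing batch. Muscle was recognisable in every library, with a mean of 11.6 to 12.1 log2 CPM over 22 mature myofibre markers in dexamethasone libraries and 12.1 to 12.6 in saline libraries. CPM values are read counts scaled for depth, here by an effective library size. In whole muscle, fewer cells of a type and less RNA per cell cannot be told apart.

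Most ribosomal protein transcripts were slightly lower in dexamethasone muscle relative to the median gene. Of the 89 members 54 fell and 0 rose at an adjusted p of at most 0.05 in limma, with Benjamini-Hochberg adjustment over all 14911 genes. Of all genes, 22.9% were called lower, 25.2% higher and 48.1% in either direction. The median member differed by -0.19 on the log2 scale, 12.1% lower, and the median gene by 0.01. At an unadjusted p under 0.05, 63 members were lower and 0 higher in limma. The share of all genes at that unadjusted threshold was not counted. Voom on recovered reads called 53 members lower and 0 higher, and 23.2% of all genes lower and 24.2% higher. A negative difference was seen in 84 of the 89. The authors' deposited table had 53 members called lower and 0 higher, all of them among the 54 called here.

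The canonical members moved as a narrow band. Of the 76, 50 fell, and 75 had a negative difference, the exception being Rpl3, which encodes a protein near the peptidyl transferase centre. Their lower and upper quartiles were -0.24 and -0.14 on the log2 scale. The SD of the log2 fold change was 0.09 over canonical members and 0.51 over all genes. Those sets were not matched in level, with a median of 7.93 log2 CPM in canonical members and 4.19 in all genes. Both subunits were alike, with 22 of 31 small subunit genes and 28 of 45 large subunit genes called lower and medians of -0.19 in each. The groups did not overlap in 15 of the 76 canonical members, and in 17 of all 89 members, each time with every dexamethasone library below every saline library, where 12.9% of all genes were called so. Among the 17 were Rpl37a, Rpl27, Rps28, Rpl21 and Rps14, with the copies Rpl36al and Rps23rg1.

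**Figure D1:**
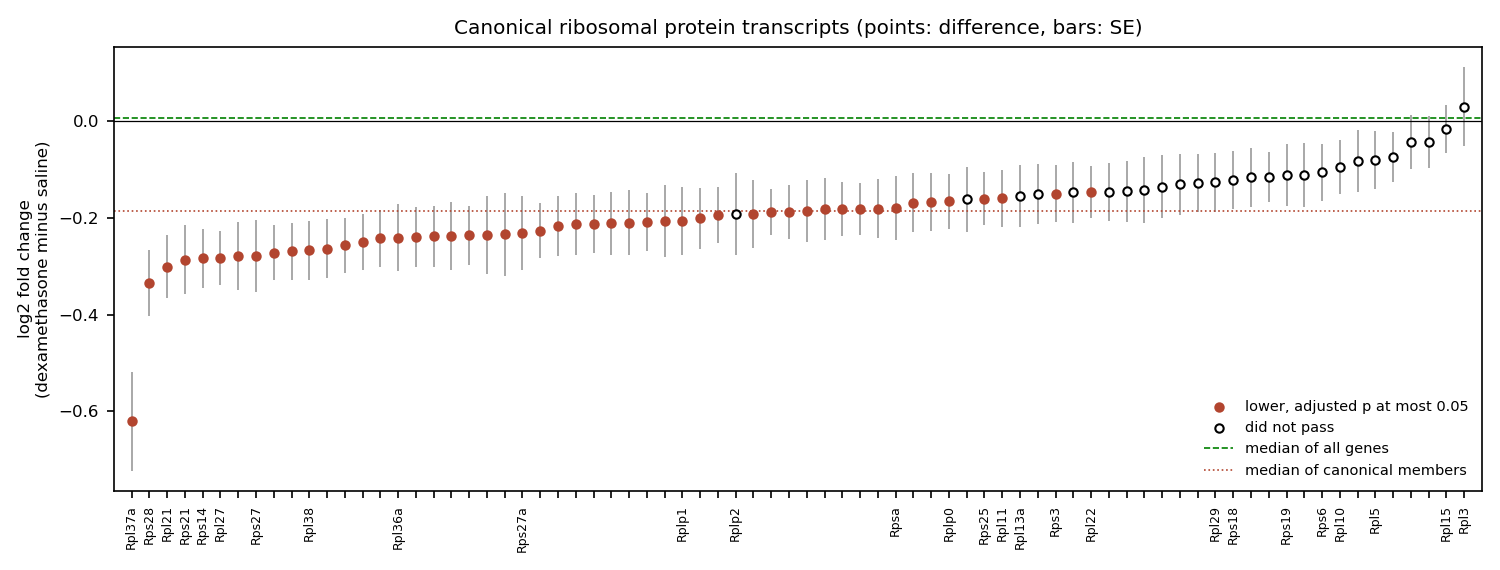
Log2 fold change (dexamethasone minus saline, points) with SE (bars) of the 76 canonical ribosomal protein genes, ordered by value, with symbols under the genes that were singled out by rule. Filled points passed an adjusted p of 0.05, and lines mark the median of all genes and of the canonical members. Rpl37a stands apart at -0.62, 50 genes are filled and only Rpl3 lies above 0. With total reads as library size, 2 of all 89 members pass as higher and 5 as lower. Of these, Rpl7l1 and Rpl22l1 (higher) and Rps27rt and Rps23rg1 (lower) are copies that are not plotted. Among all genes, 35.2% pass as higher and 13.4% as lower on that scale.

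The size of the fall depended on how library size was set. The deposited values used an effective library size that was 1.03 ± 0.036 times the summed reads in dexamethasone libraries (SD, n = 9) and 0.952 ± 0.056 times in saline libraries (SD, n = 4), a log2 difference of 0.12 (exact permutation p of 0.0042 over 715 splits, two-sided). With total reads as library size the median of all genes moved to 0.12 and that of the members to -0.07. Library size shifts all genes of a library alike, so the distance between the member median and the median gene, -0.19, is the same on either scale by construction. That distance was -0.14 under quantile normalisation and -0.13 without saline library 5. With total reads few calls remained, with 5 members lower (Rps27rt, Rps23rg1, Rpl37a, Rps28 and Rpl27) and 2 higher (Rpl7l1 at 0.21 and Rpl22l1 at 0.19). A positive difference was then seen in 18 members. Among all genes, 35.2% passed as higher on that scale and 13.4% as lower.

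Member levels in each library show where the difference sat. The median member was at 7.62 to 7.83 log2 CPM in dexamethasone libraries, with a middle value of 7.75, and at 7.77, 7.89, 7.95 and 8.08 in saline libraries 1, 2, 3 and 5. The means were 7.74 ± 0.07 in dexamethasone and 7.93 ± 0.13 in saline (SD, n = 9 and 4). The lowest saline library lay within the dexamethasone range and the highest stood alone. Saline library 5 was the highest saline library for 80 of the 89 members, and saline library 1 the lowest for 61. Among dexamethasone libraries, library 8 was the highest for 56 members and library 2 the lowest for 46.

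The share of all recovered reads that came from the 89 members was 1.96% to 2.18% in dexamethasone libraries (2.07% ± 0.08, SD, n = 9). It was 1.84%, 2.05%, 2.26% and 2.58% in saline libraries 1, 2, 3 and 5 (2.18% ± 0.31, SD, n = 4). The dexamethasone libraries fell inside the saline range by this measure. Without saline library 5 the members called lower numbered 30, all of them among the 54, with a median of -0.12, and Rpl3 was called higher at 0.15. Of all genes, 21.8% were then called lower and 25.3% higher. Without saline library 1 the members called lower numbered 63, with a median of -0.22, where 21.3% of all genes were called lower.

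**Figure D2:**
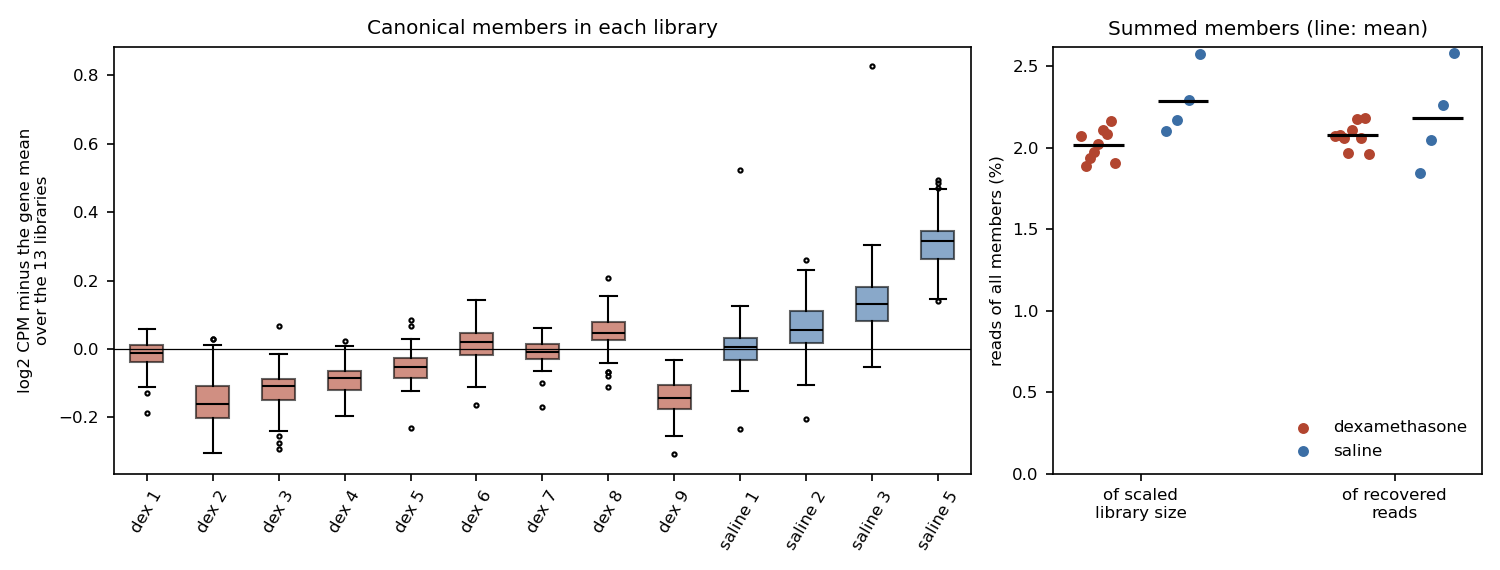
Left, boxes of log2 CPM minus the mean of each gene over the 13 libraries for the 76 canonical members, per library (line, median; box, quartiles; points, values beyond 1.5 times the box). Right, reads of all 89 members as a percentage of the scaled library size and of all recovered reads, with group means as lines. Saline libraries differ among themselves more than dexamethasone libraries do, and the groups overlap at 1.96% to 2.18% against 1.84% to 2.58% of recovered reads.

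Rpl37a, a zinc-binding protein of the large subunit, fell most among canonical members. It lies at mm10 chromosome 1, 72711260 to 72713813 (Entrez 19981). It was at 6.82, 6.94 and 7.12 log2 CPM in the lowest, median and highest dexamethasone library, against 7.65, 7.17, 7.95 and 7.45 in saline libraries 1, 2, 3 and 5. The dexamethasone libraries were tightly placed below all saline libraries, which were spread widely. The difference was -0.62 ± 0.10 (SE), or 1.54-fold lower, with an adjusted p of 0.000143 (limma). It was -0.51 with total reads as library size (adjusted p 0.00083, limma).

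Rps28, a small subunit protein at the mRNA exit channel (Entrez 54127, mm10 chromosome 17, 33823036 to 33824562), was next among the canonical members. It was at 6.76, 6.88 and 6.97 log2 CPM in the lowest, median and highest dexamethasone library, against 6.98, 7.13, 7.28 and 7.44 in saline libraries 1, 2, 3 and 5. The groups lay next to each other without overlap. The difference was -0.33 ± 0.07 (SE; adjusted p 0.000914, limma). Neither Rpl37a nor Rps28 had a pyrimidine run in the window shown. Canonical members with such a run and those without it had the same median log2 fold change of -0.18.

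Further canonical falls were smaller and close together. Rpl21, of the large subunit, was at 6.88 to 7.03 log2 CPM in dexamethasone and at 7.17, 7.10, 7.23 and 7.54 in saline, a difference of -0.30 (adjusted p 0.00139, limma). Rps14, whose loss of 1 copy underlies the anaemia of the human 5q deletion syndrome, was at 7.84 to 8.04 log2 CPM in dexamethasone and at 8.11, 8.10, 8.32 and 8.42 in saline, a difference of -0.28 (adjusted p 0.00122, limma). Rpl27 was at 6.14 to 6.44 log2 CPM in dexamethasone and at 6.50, 6.62, 6.66 and 6.63 in saline, a difference of -0.28 (adjusted p 0.000666, limma). In these 3 the groups did not overlap. Rps21 differed by -0.29 and Rps29 by -0.28, and in both the highest dexamethasone library reached above the lowest saline library. Rps29 was named after its values were seen. With total reads the calls of Rpl21 (-0.19, adjusted p 0.0657, limma), Rps14 (-0.17, adjusted p 0.0692, limma) and Rps21 (-0.17, adjusted p 0.0836, limma) ended.

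The acidic stalk of the large subunit recruits and activates the elongation factors. Its base protein, Rplp0, was among the most abundant members at 9.62, 9.70 and 9.81 log2 CPM in the lowest, median and highest dexamethasone library, against 9.79, 9.84, 9.89 and 9.99 in saline libraries 1, 2, 3 and 5. The groups overlapped by a narrow margin. Rplp0 fell by 0.17 and Rplp1 fell by 0.21 on the log2 scale (adjusted p 0.0247 and 0.0228, limma), whereas Rplp2 differed by -0.19 with an adjusted p of 0.0718 (limma). Both calls ended without saline library 5, at -0.13 each (adjusted p 0.0784 and 0.0989, limma), or without saline library 3, at -0.16 and -0.18 (adjusted p 0.0619 and 0.0751, limma). Rplp2 passed without saline library 1 (-0.26, adjusted p 0.0261, limma) or dexamethasone library 8 (-0.23, adjusted p 0.0261, limma).

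Some ribosomal proteins have known roles outside the ribosome or in the translation of particular messenger RNAs. Rpl5 and Rpl11, which bind MDM2 with 5S RNA and stabilise p53 under ribosomal stress, differed by -0.08 (adjusted p 0.28, limma) and -0.16 (adjusted p 0.0359, limma). Rpl13a, released from the ribosome in the interferon gamma response of human myeloid cells, was at 7.36, 7.44 and 7.60 log2 CPM in the lowest, median and highest dexamethasone library, against 7.43, 7.65, 7.64 and 7.74 in saline libraries 1, 2, 3 and 5. The groups overlapped through saline library 1, and the difference of -0.15 had an adjusted p of 0.0557 (limma). Rpl38, needed in mice for translation of Hox mRNAs, was at 6.27, 6.38 and 6.54 log2 CPM in the lowest, median and highest dexamethasone library, against 6.53, 6.69, 6.73 and 6.75 in saline libraries. The groups met at 1 library on each side, and Rpl38 fell by 0.27 (adjusted p 0.00211, limma).

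Rps6, the S6 kinase substrate, was at 7.49, 7.56 and 7.64 log2 CPM in the lowest, median and highest dexamethasone library, against 7.58, 7.53, 7.63 and 7.92 in saline libraries 1, 2, 3 and 5. Only saline library 5 lay outside the dexamethasone range, and the difference of -0.11 did not pass (adjusted p 0.157, limma). Rps19, mutated in human Diamond-Blackfan anaemia, differed by -0.11 (adjusted p 0.164, limma) and Rps18 by -0.12 (adjusted p 0.109, limma). Rpl10, the last large subunit protein to join, differed by -0.09 (adjusted p 0.171, limma) and Rpl29 by -0.13 (adjusted p 0.0978, limma). Rps27a, made as a fusion with ubiquitin, fell by 0.23 (adjusted p 0.0199, limma). Rpsa, the laminin receptor precursor, fell by 0.18 (adjusted p 0.034, limma), Rps25 by 0.16 (adjusted p 0.0238, limma) and Rps3 by 0.15 (adjusted p 0.045, limma).

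These smaller calls changed when single libraries were left out. In Rps3 the call ended also where the difference grew, at -0.17 without saline library 2 (adjusted p 0.0581, limma). Without saline library 5, Rps3 was at -0.08, Rpsa and Rpl11 at -0.11, Rps25 at -0.11 and Rps27a at -0.17, and none of them passed. Leaving out any 1 of 9 libraries ended the Rps3 call (-0.17 to -0.08), saline libraries 2, 3 and 5 and dexamethasone libraries 1, 2, 3, 5, 7 and 9. For Rpl11 these were 7 (-0.16 to -0.11), saline libraries 2 and 5 and dexamethasone libraries 2, 3, 4, 5 and 9. For Rpsa these were 6 (-0.18 to -0.11), saline libraries 3 and 5 and dexamethasone libraries 2, 3, 4 and 9. The Rps27a call also ended without saline library 3 (-0.21). Without saline library 1, Rpl13a (-0.22, adjusted p 0.0102, limma), Rps18 (-0.17, adjusted p 0.0334, limma) and Rpl29 (-0.18, adjusted p 0.0278, limma) passed, as did Rpl13a without dexamethasone library 6 or 8 (-0.17 each).

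Which members changed in proportion to the others does not depend on library size. For this the median log2 CPM of the 89 members was subtracted in each library before the same fit. Of the members 4 were then higher and 4 lower at an adjusted p of 0.05 (limma), where 41.7% of the 14911 genes passed as higher on this scale and 9.06% as lower. Higher in proportion were Rpl7l1, Rpl22l1, Rpl3 and Rpl15. Lower were Rps27rt, Rps23rg1, Rpl37a and Rps28.

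Rpl7l1, a copy of Rpl7 with a role in ribosome assembly, stood at -2.15, -1.89 and -1.73 log2 units from the member median in its lowest, median and highest dexamethasone library, against -2.09, -2.13, -2.30 and -2.20 in saline libraries 1, 2, 3 and 5. The groups overlapped, and the difference was 0.28 ± 0.07 (SE; adjusted p 0.00526, limma). Rpl22l1, a copy of the RNA-binding protein Rpl22, differed by 0.26 (adjusted p 0.0105, limma), a call that ended without saline library 3 (0.20, adjusted p 0.0597, limma). Rpl15, a large subunit protein, stood at -1.02, -0.97 and -0.92 from the member median in its lowest, median and highest dexamethasone library, against -1.03, -1.13, -1.23 and -1.15 in saline libraries. The groups did not overlap, and the difference was 0.17 (adjusted p 0.0146, limma), lost without saline library 3 (0.14, adjusted p 0.0772, limma).

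Rpl3 stood at 0.55, 0.60 and 0.74 from the member median in its lowest, median and highest dexamethasone library, against 0.36, 0.27, 0.42 and 0.63 in saline libraries 1, 2, 3 and 5. Saline library 5 lay among the dexamethasone libraries. The difference was 0.21 (adjusted p 0.0164, limma). It did not pass when saline library 2 was left out, at 0.16 with an adjusted p of 0.0886 (limma). On the log2 CPM scale Rpl3 differed by 0.03 (adjusted p 0.787, limma).

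Rpl37a stood at -0.87, -0.81 and -0.60 from the member median in its lowest, median and highest dexamethasone library, against -0.12, -0.72, 0.00 and -0.63 in saline libraries 1, 2, 3 and 5. Saline libraries 2 and 5 lay inside the dexamethasone range, so the groups overlapped, and saline libraries 1 and 3 lay above it. The difference of -0.44 (adjusted p 0.00247, limma) passed in every alternative fit that was run. Rps28 differed by -0.15 on this scale (adjusted p 0.0285, limma), and did not pass without saline library 5 (-0.12, adjusted p 0.0795, limma), dexamethasone library 3 (-0.14, adjusted p 0.0501, limma) or saline library 3 (-0.14 at an adjusted p of 0.0917, limma).

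Rps27rt and Rps23rg1, 2 retrogene-like copies of Rps27 and Rps23, had few reads. Rps27rt had 13 to 34 reads in dexamethasone libraries, against 38, 56, 23 and 40 in saline libraries 1, 2, 3 and 5. Rps23rg1 had 10 to 22 reads in dexamethasone libraries, against 20, 35, 24 and 31 in saline libraries. Their log2 fold changes of -0.96 and -0.87 carry the 0.5 read offset of the deposited values, and that of Rps23rg1 did not pass without saline library 2 (-0.68, adjusted p 0.0524, limma). Relative to the member median neither passed without saline library 2 (-0.51 and -0.48, adjusted p 0.151 and 0.171, limma) or with log2 of CPM plus 1. Rps27rt also failed to pass there without saline library 1 (-0.69, adjusted p 0.0755, limma), and Rps23rg1 without dexamethasone library 2 (-0.61, adjusted p 0.0576, limma) or dexamethasone library 5 (-0.60 at an adjusted p of 0.0567, limma). Reads of such near-identical copies can be exchanged with the parent genes in counting, so these values are uncertain. Many canonical members also have processed pseudogenes in the genome, and how reads shared with those were counted is not given in the sources used here.

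**Figure D3:**
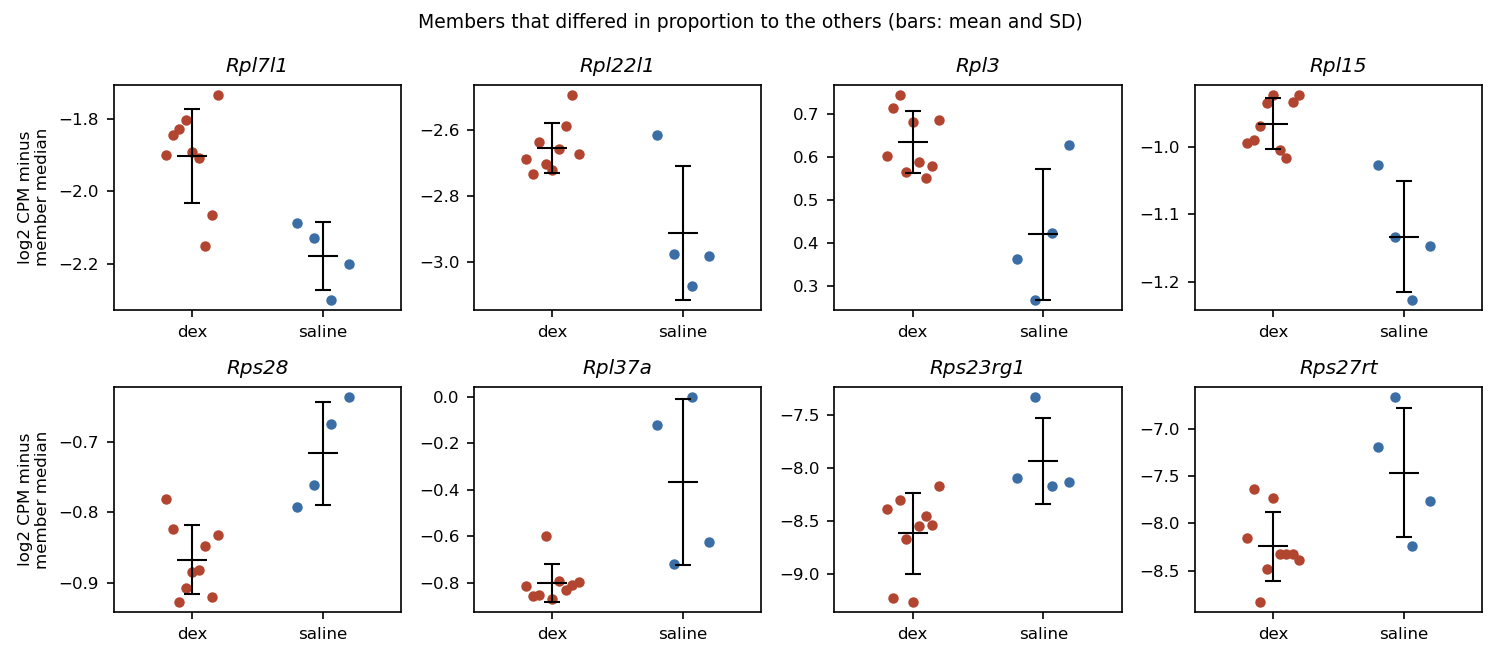
Log2 CPM minus the member median of the same library for the 8 members that differed in proportion, with each library as a point and the mean and SD as bars. Each panel has its own vertical axis. Rpl37a differs by -0.44 with 2 saline libraries far above the rest, and Rpl15 by 0.17 with no overlap.

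Copies beside their canonical partners gave 4 ratios within a library, chosen after values were seen and tested by an exact permutation over 715 splits, two-sided, with adjustment over the 4. The log2 ratio of Rps27l, a p53-induced copy, over Rps27, of the small subunit, was -1.84, -1.77 and -1.68 in the lowest, median and highest dexamethasone library, against -2.21 to -1.86 in saline libraries. No values overlapped, and the difference of 0.22 had an exact permutation p of 0.0014, the smallest these splits can give, and an adjusted p of 0.0056. It was 0.15 without saline library 5. Rps27 itself fell by 0.28 while Rps27l differed by -0.06 (adjusted p 0.00641 and 0.357, limma).

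For Rpl22l1 over Rpl22 the log2 ratio was -2.36 to -2.08 in dexamethasone libraries and -2.60 to -2.22 in saline libraries. The difference was also 0.22 (exact permutation, adjusted p 0.0224), and 0.20 without saline library 2 or 0.17 without saline library 3 (adjusted p 0.0727 each). Rpl22 fell by 0.15 (adjusted p 0.0353, limma), and this did not pass in 6 fits that each left out a library, saline libraries 3 and 5 and dexamethasone libraries 2, 3, 4 and 9 (-0.14 to -0.10). Rpl36al over Rpl36a differed by 0.01 (exact permutation, adjusted p 0.869). Rpl36a fell by 0.24 and Rpl36al by 0.23 (adjusted p 0.00909 and 0.00579, limma).

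Rpl3l replaces Rpl3 in mature striated muscle. It was at 7.68, 8.09 and 8.28 log2 CPM in the lowest, median and highest dexamethasone library, against 8.59, 8.32, 8.13 and 8.02 in saline libraries 1, 2, 3 and 5. Saline library 1 was highest here and saline library 5 lowest, the reverse of most other members. The difference was -0.22 (adjusted p 0.124, limma), and the log2 ratio over Rpl3 differed by -0.25 (exact permutation, adjusted p 0.31). Without saline library 5 that ratio differed by -0.46 (exact permutation, adjusted p 0.0485). The mature myofibre markers had 9 of 22 members lower and 0 higher, where 22.9% of all genes were called lower. Their median was -0.38, with 14 lower without saline library 5, and their part in the Rpl3l values was not tested.

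The remaining copies were low or did not pass. Rps4l had 3.61 to 4.22 log2 CPM in dexamethasone libraries and 3.69 to 4.12 in saline libraries. Rpl39l, a copy used in the male germ line, had 4 to 46 reads in dexamethasone libraries and 15 to 18 in saline libraries. Rps19bp1 differed by -0.02 (adjusted p 0.831, limma), Rpl6l by -0.18 (adjusted p 0.108, limma) and Rpl32l, with 9 to 31 reads in each library, by -0.53 (adjusted p 0.192, limma). Rpl37rt fell by 0.24 (adjusted p 0.0142, limma). Rpl6l, Rpl32l and Rpl37rt, with Rps23rg1, were recognised as copies after the table was seen. Rpl39 and Rpl10l were not analysed here.

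Levels between members can be compared per transcript length. Per kilobase of the median protein-coding transcript, Rplp1 was highest in both groups, at 1143 CPM per kilobase in dexamethasone and 1318 in saline. Rps24, at 768 in dexamethasone and 877 in saline, came next, then Rpl41, Rps15 and Rps29 in the same order in both groups. The order of the 85 members with a length was nearly the same in both groups (Spearman's rho of 0.993, a description over genes). Rpl37a was 54th in dexamethasone and 37th in saline. Rps15a and Rps20, at the low end of the canonical members with 36.5 and 57.0 in dexamethasone and 40.1 and 66.0 in saline, have long annotated transcripts that may not be the form in muscle.

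Shorter members tended to differ more. The 38 canonical members below the median length of 776 bases had a median log2 fold change of -0.21, with 27 called lower. The other 38 had a median of -0.17, with 23 called lower. Spearman's rho of length with log2 fold change was 0.37 over the 76 canonical members and 0.22 over 14351 genes of the table, as descriptions over genes that share these libraries. Genes no longer than the longest canonical member, 5130 bases, numbered 12496 of these 14351. Their median log2 fold change was -0.01, with 24.7% called lower. That set was not matched to the members in length, as the median length of all genes was 2705 bases. The part that length plays in the members' difference was not tested.

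**Figure D4:**
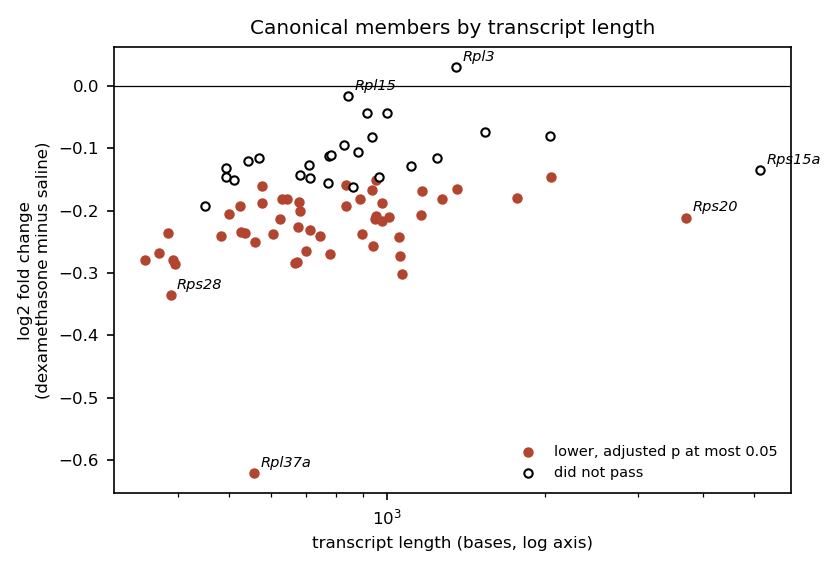
Log2 fold change (dexamethasone minus saline) of the 76 canonical members against the median length of their protein-coding transcripts on a log axis. Filled points passed an adjusted p of 0.05. Short genes such as Rps28 lie lower on the whole than long ones, with rho at 0.37, and Rpl37a lies apart.

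Start windows, from 250 bases before to 50 bases after the annotated start, were matched for 67 members, 56 of them canonical. A run of C followed by at least 4 bases of C or T, opening within 10 bases of the start, was found in 32 of the 56 canonical members. By window this was 48.5% of 66 canonical windows, and 29.0% of all 32851 windows of the reference, which were not limited to the measured genes. Members with the run and members without it had the same median log2 fold change of -0.18. As annotated starts can differ from the starts used in muscle, this is not a split by the tract itself. The ETS family motif CCGGAAGT, or ACTTCCGG on the other strand, lay in 16.7% of the canonical windows and 3.89% of all windows, with medians of -0.18 for members with and without it. The full palindrome of the glucocorticoid response element lay in 0 canonical windows and in 3 of all 32851 windows.

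Some ribosomal proteins have symbols that do not follow the naming. Fau, which yields eS30, fell by 0.25 (adjusted p 0.00257, limma), and -0.14 with total reads did not pass (adjusted p 0.137, limma). Rack1, the scaffold on the small subunit, differed by -0.10 (adjusted p 0.155, limma), and passed without saline library 1 (-0.14, adjusted p 0.0486, limma).

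The mitochondrial ribosome is a separate particle that translates the mitochondrial genome. Of its 77 measured protein genes 65 fell and 0 rose, with a median of -0.30, and 47 were called lower with total reads. The share called lower over all genes was 22.9%, and 13.4% with total reads. Mrpl12 was at 5.30, 5.40 and 5.44 log2 CPM in the lowest, median and highest dexamethasone library, against 5.94, 5.83, 5.85 and 5.88 in saline libraries 1, 2, 3 and 5. That gap was many times the spread within either group, a difference of -0.48 (adjusted p 3.32e-07, limma). Mrps35 fell by 0.59 (adjusted p 2.35e-06, limma). In 54 of the 77 every dexamethasone library lay below every saline library, as in 12.9% of all genes.

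Factors that assemble the ribosome moved the other way. Of 34 measured 23 rose and 1 fell, with a median of 0.24, and 28 rose with total reads. The share called higher over all genes was 25.2%, and 35.2% with total reads. Myc, the transcription factor that drives ribosome synthesis, was at 4.84, 5.10 and 5.44 log2 CPM in the lowest, median and highest dexamethasone library, against 3.98, 4.12, 4.23 and 4.41 in saline libraries 1, 2, 3 and 5. The groups did not overlap, and Myc rose by 0.92 (adjusted p 2.59e-06, limma). Nop58, a core protein of the small nucleolar particles that modify ribosomal RNA, rose by 0.72 and Gnl3, nucleostemin, by 0.46. In 14 of the 34 every dexamethasone library lay above every saline library, as in 12.9% of all genes.

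Elongation factors and related genes, with Eef2k and Eef1e1 in the list, differed among themselves. Of the 10 genes 0 were higher and 4 lower, and 3 and 3 with total reads. Without saline library 5 or dexamethasone library 7, 2 were called higher. Over all genes 25.2% were called higher and 22.9% lower, and 35.2% and 13.4% with total reads. The subunits of the exchange factor complex fell, with Eef1b2 at -0.34, Eef1g at -0.27 and Eef1d at -0.19 (adjusted p 0.000527, 0.000711 and 0.00549, limma), though Eef1d did not pass with total reads (-0.07, adjusted p 0.328, limma). Eef1a2, the muscle and neuron form of the tRNA carrier, fell by 0.40 (adjusted p 0.00721, limma). Its general form Eef1a1 differed by -0.08 (adjusted p 0.509, limma) and the translocase Eef2 by 0.02 (adjusted p 0.818, limma), and Eef2 passed as higher under quantile normalisation (0.23, adjusted p 0.00446, limma).

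Of 14 subunits of the initiation factor eIF3, 4 rose and 6 fell, a split that became 5 and 0 with total reads. Only 2 rose without saline library 2 or 3 or without dexamethasone library 1, 3, 4 or 5. Eif3j1, the loosely bound subunit, rose by 0.50 (adjusted p 0.000108, limma). Eif3k fell by 0.29 (adjusted p 0.000427, limma), and did not pass with total reads (-0.17, adjusted p 0.0504, limma). Of 27 other initiation factors and poly(A)-binding proteins 8 rose and 2 fell, and 17 and 1 with total reads. The shares over all genes were 25.2% higher and 22.9% lower, and 35.2% and 13.4% with total reads. Eif1a, of start codon scanning, rose by 0.84 and the helicase Eif4a1 by 0.52 (adjusted p 1.17e-05 and 2.39e-05, limma).

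Other messenger RNAs with a terminal oligopyrimidine tract had 2 of 19 higher and 7 lower, with a median of -0.10, and 4 and 3 with total reads. That list holds Fau, Rack1 and 5 of the elongation factors. Of 29 genes around mTOR, S6 kinase and the 4E-BPs, 8 rose and 5 fell, with a median of -0.03, and 12 and 4 with total reads. For both lists the shares over all genes were 25.2% higher and 22.9% lower, and 35.2% and 13.4% with total reads. Eif4ebp1 encodes a repressor of the cap-binding initiation factor. It was at 6.29, 6.50 and 6.94 log2 CPM in the lowest, median and highest dexamethasone library. In saline libraries 1, 2, 3 and 5 it was at 5.85, 5.75, 5.76 and 5.91. All dexamethasone libraries were above all saline libraries, a rise of 0.69 (adjusted p 1.22e-05, limma). Rps6kb1, which encodes S6 kinase, differed by -0.01 (adjusted p 0.853, limma). Larp1 differed by 0.09 (adjusted p 0.109, limma), and passed as higher with total reads (0.20, adjusted p 0.000537, limma) or without saline library 1 (0.12, adjusted p 0.0356, limma).

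Host genes of small nucleolar RNAs had 3 of 14 higher and 2 lower, and 7 and 1 with total reads. Without saline library 5, 5 were higher. Gas5 differed by 0.14 (adjusted p 0.0988, limma) and passed without saline library 5 (0.20, adjusted p 0.0345, limma). Dancr rose by 0.59 (adjusted p 0.00315, limma). Of 16 genes of ribosome rescue, recycling and storage 6 rose and 2 fell, and 10 and 1 with total reads. For both lists the shares over all genes were 25.2% higher and 22.9% lower, and 35.2% and 13.4% with total reads. Abce1, which splits ribosomes after termination, rose by 0.44 and the release factor Etf1 by 0.41 (adjusted p 2.09e-05 and 1.08e-05, limma).

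Markers of some cell types and of division differed between the groups. Lymphocyte markers fell in 19 of 19 genes, with a list mean of -1.10 to 0.43 log2 CPM in dexamethasone libraries and 1.80 to 2.28 in saline libraries. Cell cycle genes rose in 15 of 16, with a list mean of 4.25 to 4.76 in dexamethasone and 3.43 to 4.31 in saline. Macrophage markers had 5 of 14 higher and 2 lower, with a list mean of 6.62 to 6.92 in dexamethasone and 6.27 to 6.80 in saline. Neutrophil markers had 1 of 10 higher and 2 lower, fibroblast markers 1 and 1 of 10, endothelial markers 1 and 1 of 10, satellite cell markers 4 and 1 of 11, and red blood cell markers 0 and 0 of 6. Over all genes 25.2% were called higher and 22.9% lower. With 1 library left out at a time the higher counts ran from 0 to 3 for neutrophil, 0 to 2 for endothelial, 1 to 2 for fibroblast and 2 to 5 for satellite cell markers. The lower counts ran from 1 to 3 for endothelial, fibroblast and macrophage markers each and from 0 to 2 for neutrophil markers. Without saline library 3 neutrophil markers had 3 higher and 0 lower. The lymphocyte marker Cd8b1 had no read in some library, and no marker was without reads in every library. Their part in the ribosomal protein values was not tested.

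**Figure D5:**
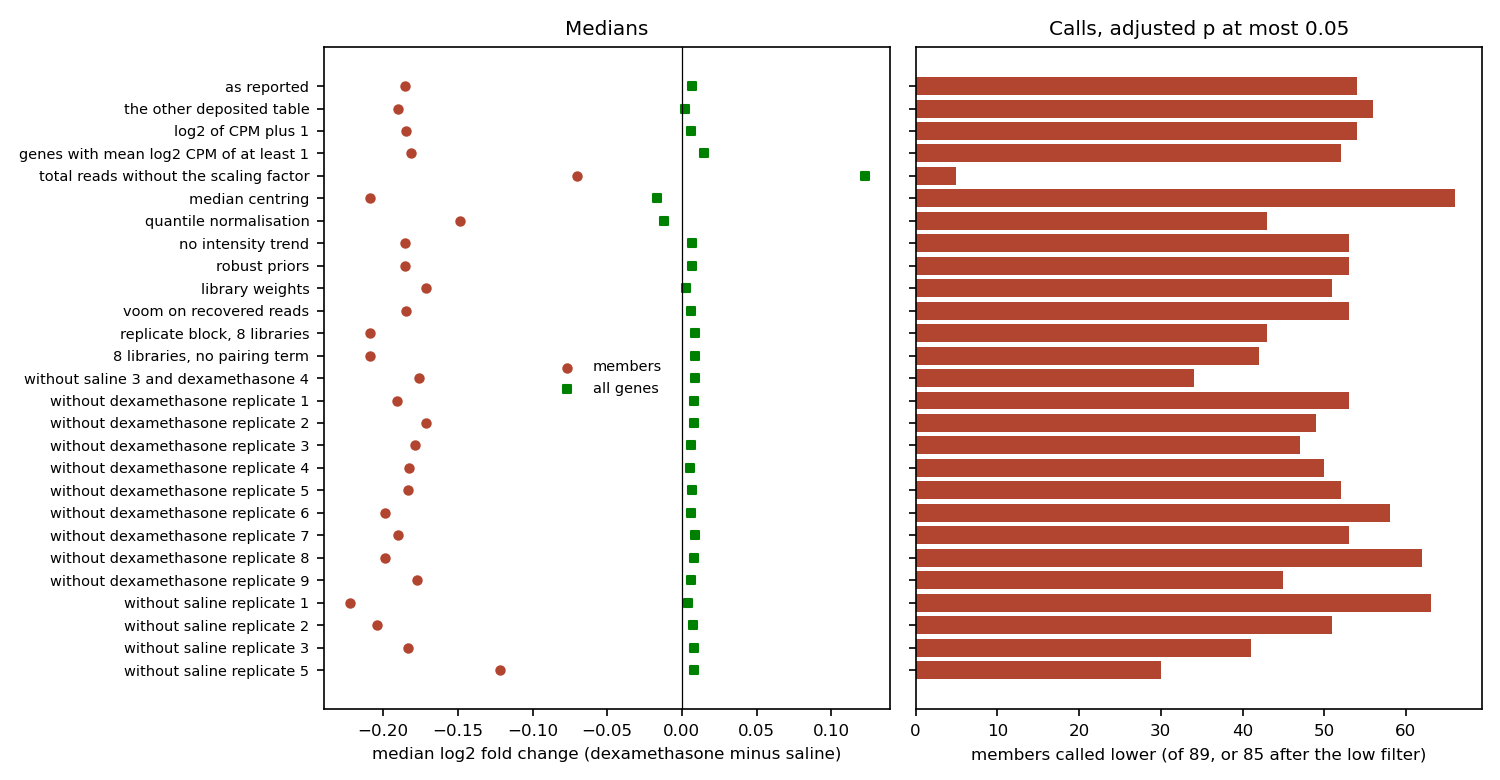
Left, median log2 fold change (dexamethasone minus saline) of the members and of all genes under each way of processing. Right, number of members called lower. The distance between both medians, which library size cannot move, is -0.19 as reported, -0.14 with quantile normalisation and -0.13 without saline library 5. The calls run from 5 with total reads to 66 with median centring, where 13.4% and 24.9% of all genes were called lower.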

How the data were processed

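RNA of 13 muscles was compared, 9 dexamethasone and 4 saline, grouped by the labels. Per the labels' protocols, polyadenylated RNA was made into stranded libraries. The build mm10 and the tools featureCounts 2.0.1 and limma 3.50.1 are named in the submitters' processing notes; the aligner is not given in the sources used here. Values are log2 CPM as deposited, beside which the authors gave their log2 fold changes, p-values and limma test scores (the scores were not used). The column of the excluded saline mouse, 1 in all, was not used. The deposited log2 values gave whole reads within 0.01 in 100% of values, with an offset of 0.5 read.

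Differences were fitted over 14911 genes with limma 3.58.1 in R 4.3.3 (dexamethasone against saline, intensity trend, two-sided, Benjamini-Hochberg adjustment at 0.05), on 11 residual degrees of freedom. A planned quasi-likelihood count test was not run because the deposited values are log2; voom on the recovered reads was. Steps were tested on simulated data. Members and lists were chosen with earlier results of these data known. Named members were up to 8 largest called in each direction, up to 4 relative to the member median, fixed copies and members of known function, and up to 4 genes a list, of which some are not reported here. Lengths are medians of protein-coding GENCODE M21 transcripts on GRCm38. Among 42 pairs of libraries within a group the chi-square per gene was at least 7.21, so each counts once. Nothing beyond the mouse number says how mice were housed or processed together, and p-values measure the spread between these mice. Figures used matplotlib 3.10.9.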

Additional observations from a re-analysis of the deposited data

Results flagged for a closer look

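Single libraries stood apart from their group for 7 of the 140 sets of values examined (1 gene in 1 group each, by the gap to the nearest library), where chance marks about 1 in 20 groups. In saline library 5, Rpl10 was at 8.51 log2 CPM (nearest other saline library 8.26), Rps25 at 8.43 (8.24), Rpl7a at 7.83 (7.56) and Rpl15 at 6.93 (6.76). Eef1d was at 7.38 in the same library (7.25). Saline library 5 was also the highest saline library for 80 of the 89 members. In dexamethasone library 4, Eif4ebp1 was at 6.94 log2 CPM (nearest other dexamethasone library 6.56) and Etf1 at 7.55 (7.37).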

How the results depend on the processing

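Members called lower numbered 54 as reported. They were 5 with total reads as library size, where 2 were called higher, and 34 with saline library 3 and dexamethasone library 4 both left out. Leaving out 1 library at a time gave 30 to 63 lower and 0 to 1 higher. Median centring gave 66, quantile normalisation 43, library weights 51, voom 53 and log2 of CPM plus 1 54, with robust priors or no intensity trend at 53 each. A count of 56 came with the other deposited table and 52 of 85 with a filter at a mean log2 CPM of 1. Of all genes, 22.9% were called lower as reported, 13.4% with total reads and 20.3% without that pair of libraries. The share was 24.9% with median centring, 25.1% with quantile normalisation and 22.5% to 23.9% in the other fits to all 13 libraries. Leaving out 1 library at a time gave 19.8% to 22.9%.

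Relative to the member median, 4 were higher and 4 lower as reported. The lower count was 2 with log2 of CPM plus 1, 2 with the filter, 7 with quantile normalisation, 2 with library weights, and 2 without saline library 3 and dexamethasone library 4. The higher count was 2 with quantile normalisation and 2 without that pair. Leaving out 1 library at a time gave 2 to 7 higher and 3 to 4 lower. The causes were not tested.

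Replicate numbers 1, 2, 3 and 5 occur in both groups, and deviations of same-numbered libraries correlated at -0.013, -0.07, -0.031 and 0.12. These values gave no sign of pairing by number, but they cannot exclude shared housing or processing. With the replicate block 43 members were lower, and 42 in the same 8 libraries without it. Of all genes, 19.5% and 19.9% were called lower in these fits, in that order. Relative to the median, the replicate block gave 2 higher and 1 lower, as did the 8 libraries without it, 2 and 1. The count test was not run. Counts of reads limit Rps27rt, Rps23rg1, Rpl39l and Rpl32l, with 4 to 56 reads a library. Over all named genes and copy ratios no called value changed sign, 155 alternative values of named genes lost a call and 46 gained one. The alternatives for the copy ratios were chosen after seeing the data.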
